A study of Mus musculus with 4 samples.

Results

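The genes described here are 9 chemokine receptors of the mouse: Ccr1, Ccr2, Ccr6, Ccr7, Cxcr3, Cxcr4, Cxcr6, Cx3cr1 and Ackr3. They were selected by name, and all 9 were found among the 21462 genes of the deposited table of normalized counts. RNA was sequenced from smooth muscle cells (SMCs) of mouse lung, and the question behind the comparison was which transcripts differ once Tet3, which encodes an enzyme that oxidizes 5-methylcytosine in DNA, is inactivated in these cells. The data comprise 4 libraries, 2 from Tet3 mutant animals and 2 from control animals, all on a C57BL/6 background.

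Tet3 mutant animals carried floxed Tet3 alleles and a tamoxifen-inducible Cre recombinase under the promoter of α-SMA, the actin of contractile cells, together with a tdTomato reporter that Cre switches on. By the study's methods, controls lacked the floxed allele and carried Cre, the reporter or both. Tamoxifen was injected daily into adult animals to switch on Cre. The sex and the age at sampling of the animals behind each library are not given in the sources used here. Lungs were digested with enzymes, blood cells were depleted with magnetic beads against CD45 and Ter-119, and living tdTomato-positive cells were sorted. Controls sorted in this way must have carried both Cre and the reporter. The α-SMA promoter is not restricted to a single lineage, since pericytes and myofibroblasts can also use it. The study describes 2 independent animals per group, so the spread between libraries is that between animals.

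Chemokine receptors are membrane proteins with several passes through the lipid bilayer that sense gradients of small secreted proteins, the chemokines, and steer cell migration through inhibitory G proteins. Ccr1, Ccr2 and Cx3cr1 are known from monocytes and macrophages, Ccr6, Ccr7, Cxcr3 and Cxcr6 from lymphocytes and dendritic cells, and Cxcr4 and Ackr3 as the pair of receptors for Cxcl12. Ackr3 is atypical, because it binds and removes the chemokine without coupling to G proteins. In the lung these receptors are best known for the recruitment and positioning of leukocytes, while Ackr3 is also made by stromal and endothelial cells.

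The promoters of 4 members are shown, and these do not stand for all members. They belong to the 3 genes whose levels were higher in the mutants at an unadjusted p under 0.05, and to Cxcr4, whose groups overlapped. Each is the run of 250 bases just before the gene's start in the RefSeq annotation of GRCm38.p6, printed 5′ to 3′ on the strand of the gene, with CpG dinucleotides, the sites at which TET enzymes act, in capitals. The window of Ccr1 is chr9:123968693-123968942 on the minus strand and that of Ccr2 is chr9:124101933-124102182 on the plus strand. The window of Cx3cr1 is chr9:120068297-120068546 and that of Cxcr4 is chr1:128592300-128592549, both on the minus strand. RefSeq starts can differ from those of the gene models that were counted. The Cx3cr1 window lies inside the counted gene, which ends at 120069879. Most of the Ccr2 window lies inside its counted gene, which starts at 124101950.
Ccr1: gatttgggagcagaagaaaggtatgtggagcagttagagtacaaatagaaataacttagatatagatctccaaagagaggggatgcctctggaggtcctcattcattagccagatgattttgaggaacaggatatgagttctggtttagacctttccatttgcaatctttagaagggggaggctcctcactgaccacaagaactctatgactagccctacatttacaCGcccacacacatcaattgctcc
Ccr2: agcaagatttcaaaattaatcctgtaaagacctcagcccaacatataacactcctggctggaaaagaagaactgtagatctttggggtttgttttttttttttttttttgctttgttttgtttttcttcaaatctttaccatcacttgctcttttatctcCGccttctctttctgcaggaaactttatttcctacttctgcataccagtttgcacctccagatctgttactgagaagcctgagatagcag
Cx3cr1: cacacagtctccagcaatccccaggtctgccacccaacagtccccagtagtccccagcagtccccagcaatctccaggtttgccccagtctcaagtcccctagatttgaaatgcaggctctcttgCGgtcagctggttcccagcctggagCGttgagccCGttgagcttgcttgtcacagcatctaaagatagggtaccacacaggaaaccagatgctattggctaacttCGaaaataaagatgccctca
Cxcr4: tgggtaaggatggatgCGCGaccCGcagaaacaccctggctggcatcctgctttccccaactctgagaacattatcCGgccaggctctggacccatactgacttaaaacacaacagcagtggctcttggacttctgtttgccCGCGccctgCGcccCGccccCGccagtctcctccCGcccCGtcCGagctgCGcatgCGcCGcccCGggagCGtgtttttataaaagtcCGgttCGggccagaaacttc

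The Ccr1 promoter held 1 CpG, that of Ccr2 also 1, and that of Cx3cr1 4. The Cxcr4 promoter held 19, the most of the 9 windows found. Over the 14932 promoter windows of genes tested here that were in the same reference table, the median was 14 CpG. As few CpG as Ccr1 and Ccr2 have, or fewer, were found in 4.80% of these promoters, and 17.4% had no more than Cx3cr1. Of the other members, Cxcr3 and Cxcr6 had 3 CpG each, Ackr3 had 7, and the 2 start sites listed for Ccr6 had 1 and 7. The groups of Ccr6 overlapped, as those of Cxcr4 did. A link between the number of CpG and the change in the mutants was not tested. Of the 9 members, 8 had an entry, with 9 windows in all, and Ccr7 had none. The GC content of the windows ran from 37.2% for Ccr2 to 61.2% for Cxcr4, beside a median of 59.2% over the tested genes. A core bound by interferon response factors, GAAA and again GAAA separated by 2 bases of any kind, and a form of the NF-kappaB motif, GGG and TTTCC separated by 2 bases of any kind, were searched on both strands and were in none of the 9 windows. They were in 2.83% and 1.45% of the promoters of tested genes. GAGGAA, a core of the motif for the myeloid factor PU.1, was in the windows of Ccr1 and Cxcr3 and in the first of the Ccr6 windows, and in 22.8% of the promoters of tested genes. TATAAA, searched after the sequences had been seen, was in those of Cxcr4 and Ackr3, and in 7.03% of the promoters of tested genes. These matches describe the letters in short windows, and the data hold no measurement of methylation there.

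Tet3 itself was measured at 1847 and 1926 normalized counts in the controls and at 1534 and 1444 in the mutants, lower without overlap (log2 fold change −0.34, SE 0.10, limma adjusted p = 0.681). Control replicate 2 stood apart from the other libraries. Xist, the RNA that silences an X chromosome, was at 2 there and at 5214 to 6781 in the other 3. The summed level of 15 markers of T and NK cells was 324 in that library and 1188 to 1197 in the others. The deposited totals were 7003231 and 7164573 in the controls and 6893578 and 6805272 in the mutants. The sorted cells had the smooth muscle markers in all 4 libraries (sums of 10 genes from 10355 to 12219), and also leukocyte markers such as Ptprc, which encodes CD45, with sums of 10 genes from 5942 to 8560. Control replicate 1 was low for several smooth muscle genes. Myh11 was at 1330 there and at 2249 to 2473 in the other libraries. Lmod1 was at 123 and at 280 to 338, and Myocd at 67 and at 147 to 218. Mylk and Smtn were instead highest in control replicate 1. Without control replicate 2, this library is the only control left.

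All 9 receptors were detected in every library, with values from 15 normalized counts (Cxcr6 in control replicate 2) to 1231 (Ccr2 in mutant replicate 1). None passed limma's test after Benjamini-Hochberg adjustment over the 16659 genes tested, and the smallest adjusted p among them was 0.681. Over all genes tested, 0% passed this test, and no adjusted p was below 0.0902. Before adjustment, with p under 0.05, 3 of the 9 receptors, Ccr1, Cx3cr1 and Ccr2, were higher in the mutants, and none was lower. The background for this was 6.68% of all tested genes, with 3.83% higher and 2.85% lower. The 3 receptors kept this side of the unadjusted threshold without control replicate 2, where 3.07% of tested genes were higher.

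**Figure D1:**
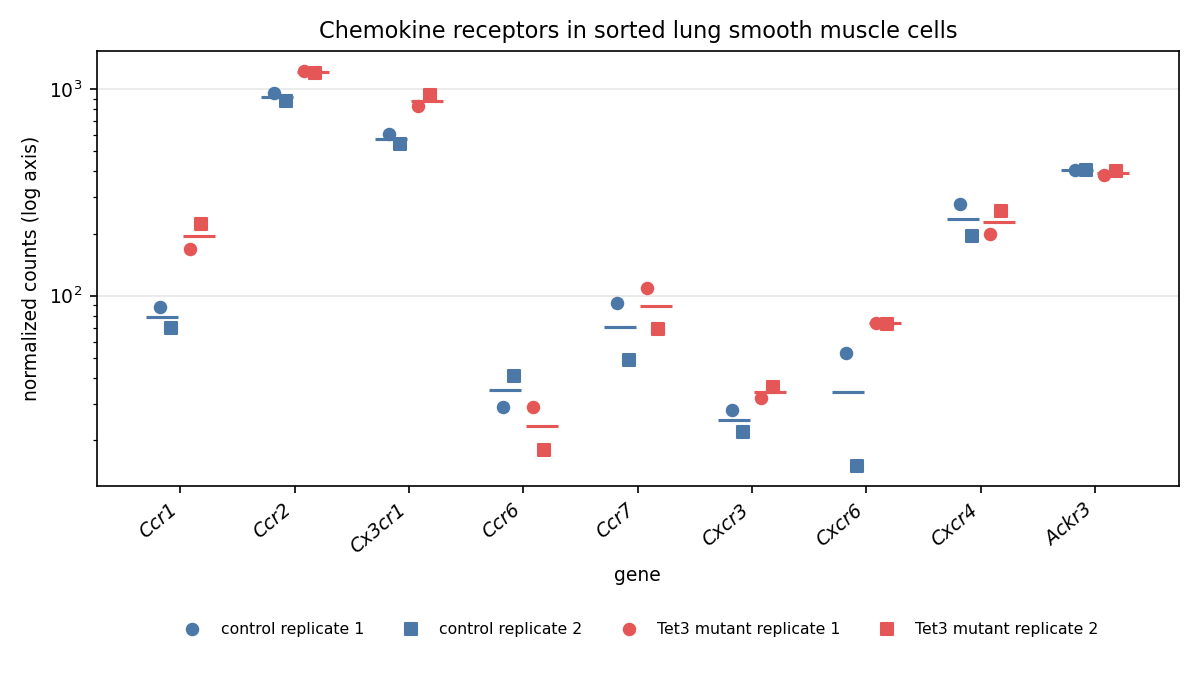
Normalized counts on a log axis for the 9 receptors, with 1 point per library and colours and shapes for the 2 control and 2 Tet3 mutant libraries, and horizontal bars for the group means. Both mutant libraries lie above both controls for Ccr1, Ccr2, Cx3cr1, Cxcr3 and Cxcr6, both lie just below them for Ackr3, and the groups overlap for Ccr6, Ccr7 and Cxcr4.

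Ccr1 (ENSMUSG00000025804, chr9:123962124-123968692, minus strand, GRCm38) encodes a receptor for Ccl3, Ccl5, Ccl7 and Ccl9 on monocytes, macrophages and neutrophils. Its normalized counts were 88 and 70 in the controls and 168 and 223 in the mutants. Both mutants were well above both controls, and the gap between the groups was larger than that within either. The group means were 79.0 ± 12.7 and 195.5 ± 38.9 (SD, n = 2 each), a ratio of 2.47. The log2 fold change on the scale of log2(value + 1) was 1.29 (SE 0.25, 95% interval 0.65 to 1.93, limma adjusted p = 0.681). This was the smallest unadjusted p among the members and rank 47 among all tested genes, and 2114 genes share that adjusted p. Without control replicate 2 the log2 fold change was 1.13 (limma adjusted p = 0.801).

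Cx3cr1 (ENSMUSG00000052336, chr9:119901616-120069879, minus strand) encodes the receptor for fractalkine and marks patrolling monocytes and several resident macrophages. It was measured at 605 and 542 in the controls and at 827 and 933 in the mutants, so that the groups did not overlap. Its log2 fold change was 0.62 (SE 0.13, 95% interval 0.29 to 0.94, limma adjusted p = 0.681), a ratio of means of 1.53. Leaving out control replicate 2 gave 0.54 (limma adjusted p = 0.801). The annotated gene spans other genes and shares 78 exon bases with an antisense transcript, Gm33858. Whether strand was used in counting is not stated, and 0.113% of the 75-base windows of Cx3cr1 transcripts also occur in that transcript.

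Ccr2 (ENSMUSG00000049103, chr9:124101950-124113557, plus strand) encodes the receptor for Ccl2, Ccl7 and Ccl12 through which inflammatory monocytes leave the bone marrow and enter tissue. Its normalized counts were 955 and 875 in the controls and 1231 and 1193 in the mutants. The values were close within each group and did not overlap. The ratio of the means was 1.32, smaller than that of Ccr1 or Cx3cr1, with a log2 fold change of 0.41 (SE 0.11, 95% interval 0.14 to 0.68, limma adjusted p = 0.681). Without control replicate 2 it was 0.34 (limma adjusted p = 0.801). For none of the 9 receptors did more than 1.16% of the 75-base windows also occur in another gene.

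In bulk RNA, fewer or more cells of a type and less or more RNA per cell cannot be told apart. The lists of general leukocyte markers and of monocyte and macrophage markers had higher sums in both mutants. No single marker passed the adjusted test of limma. The sums of T and NK cell markers overlapped, at 1197 and 324 in the controls and at 1188 and 1194 in the mutants. Those of B cell markers overlapped too. The 10 general leukocyte markers summed to 7575 and 5942 in the controls and to 8560 and 8476 in the mutants, with 10 of 10 above 0 in log2 fold change, a median of 0.40, and none at or under 3 normalized counts. The 16 markers of monocytes and macrophages summed to 9078 and 8037 in the controls and to 9663 and 11078 in the mutants, with 14 of 16 above 0, the same median and none at or under 3. Without control replicate 2 the medians were 0.23 for the leukocyte markers, with 10 of 10 above 0, and 0.25 for the monocyte and macrophage markers, with 10 of 16 above 0. Of the leukocyte markers, 8 were higher without overlap (19.6% of all tested genes) and 2 were higher at an unadjusted limma p under 0.05 (3.83%). For the monocyte and macrophage markers these counts were 9 and 4. Of the 10 smooth muscle markers, 9 were above 0, with a median of 0.46 (0.73 without control replicate 2). Here the counts were 6 and 4. The ratio of summed levels, mutants over controls, was 1.11 for smooth muscle, 1.26 for leukocyte and 1.21 for monocyte and macrophage markers. Mylk weighs most in the smooth muscle sum and was the only marker of that list not above 0 (log2 fold change −0.11). It was at 5721 and 4705 in the controls and at 5134 and 4476 in the mutants. The part of these lists in the result was not tested.

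Set against the leukocyte sum in the same library, Ccr1 amounted to 1.16% and 1.18% in the controls and to 1.96% and 2.63% in the mutants, still without overlap. Cx3cr1 amounted to 7.99% and 9.12% in the controls and to 9.66% and 11.0% in the mutants, also without overlap. Ccr2 amounted to 12.6% and 14.7% in the controls and to 14.4% and 14.1% in the mutants, which overlapped. The percentages are ratios of normalized counts and carry no test. Against the sum of the monocyte and macrophage markers, Ccr1 was at 0.969% and 0.871% in the controls and at 1.74% and 2.01% in the mutants. Cx3cr1 was at 6.66% and 6.74% and at 8.56% and 8.42%. Ccr2 was at 10.5% and 10.9% and at 12.7% and 10.8%, so that of the 3 receptors Ccr2 was the one whose groups overlapped on both of these scales. Against the sum of T and NK cell markers, which was low in control replicate 2, all 3 overlapped. There Ccr1 was at 7.35% and 21.6% in the controls and at 14.1% and 18.7% in the mutants. Cx3cr1 was at 50.5% and 167% and at 69.6% and 78.1%. The sums of neutrophil and dendritic cell markers were not used as a scale.

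**Figure D2:**
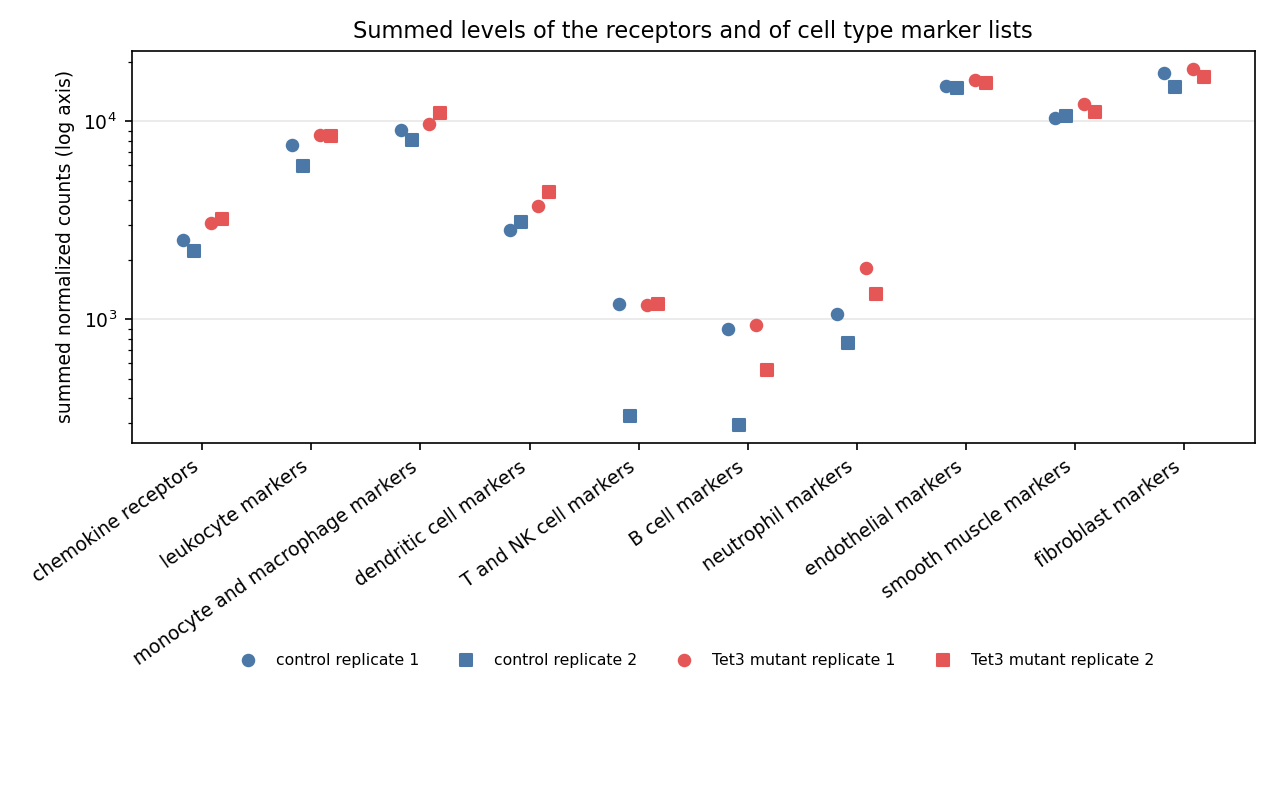
Summed normalized counts, on a log axis, of the 9 receptors and of each cell type marker list, with 1 point per library. The receptors sum to 2534 and 2213 in the controls and 3054 and 3206 in the mutants, and control replicate 2 is far below the other libraries for T and NK cell markers (324).

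Of the 4 receptors of lymphocytes and dendritic cells, none passed the unadjusted threshold. Cxcr6 (ENSMUSG00000048521, chr9:123806475-123811760, plus strand) encodes the receptor for Cxcl16 on effector and tissue-resident T cells. It was measured at 53 and 15 in the controls and at 74 and 73 in the mutants. The groups did not overlap, but control replicate 1 was much nearer to the mutants than to control replicate 2. The log2 fold change of 1.34 (SE 0.62, 95% interval −0.24 to 2.92, limma adjusted p = 0.681) became 0.46 without control replicate 2 and 2.22 without control replicate 1. Control replicate 2 was also the library with few T and NK cell markers, of which 5 of 15 were at or under 3 normalized counts there. As a percentage of their sum, Cxcr6 was at 4.43% and 4.63% in the controls and at 6.23% and 6.11% in the mutants. The part of these markers in the result was not tested.

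Cxcr3 (ENSMUSG00000050232, chrX:101731535-101734269, minus strand) encodes the receptor for the interferon-induced chemokines Cxcl9 and Cxcl10 on T and NK cells. It was low, at 28 and 22 in the controls and at 32 and 36 in the mutants, which did not overlap. On the log2 scale the difference was 0.44 (SE 0.35, 95% interval −0.46 to 1.33, limma adjusted p = 0.743), and it was 0.27 without control replicate 2. Ccr7 (ENSMUSG00000037944, chr11:99144196-99155077, minus strand) guides dendritic cells and naive T cells to lymph nodes along Ccl19 and Ccl21. Its values of 92 and 49 in the controls and of 109 and 69 in the mutants overlapped. Its log2 fold change was 0.36 (SE 0.42, 95% interval −0.70 to 1.43, limma adjusted p = 0.820), and its sign turned without control replicate 2, where it was −0.084.

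Ccr6 (ENSMUSG00000040899, chr17:8236043-8257141, plus strand) encodes the receptor for Ccl20 on B cells, Th17 cells and some dendritic cells. It was at 29 and 41 in the controls and at 29 and 18 in the mutants, with control replicate 1 and mutant replicate 1 at the same value. Its log2 fold change was −0.57 (SE 0.42, 95% interval −1.65 to 0.51, limma adjusted p = 0.728). The B cell markers had sums of 896 and 294 in the controls and of 940 and 555 in the mutants, which is a different order of the libraries from that of Ccr6. At 18 to 109 normalized counts, Ccr6, Ccr7 and Cxcr3 had intervals that reached well to both sides of 0. Those of Ccr7 and Cxcr3 also contained the log2 fold change of Cx3cr1.

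Both receptors for Cxcl12 were measured at similar levels in all libraries. Cxcr4 (ENSMUSG00000045382, chr1:128588199-128592293, minus strand), which retains blood stem cells and leukocytes near Cxcl12 and guides vascular development, was at 277 and 195 in the controls and at 199 and 258 in the mutants. The mutant values lay between the control values. The log2 fold change was −0.04 (SE 0.24, 95% interval −0.66 to 0.59, limma adjusted p = 0.974), and it ran from −0.29 to 0.22 when single libraries were left out.

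Ackr3 (ENSMUSG00000044337, chr1:90203980-90216751, plus strand), the scavenger of Cxcl12, had the narrowest values of the 9, at 407 and 404 in the controls and 385 and 403 in the mutants. Both mutants were below both controls, with mutant replicate 2 below the lower control by 1 normalized count. The log2 fold change was −0.04 (SE 0.12, 95% interval −0.35 to 0.27, limma adjusted p = 0.938), and with libraries scaled to equal totals its sign turned, to 0.0066. That of Cxcr4 was then 0.012. The interval of Ackr3 did not contain the log2 fold change of Ccr1, Cx3cr1 or Ccr2.

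Counted over the 9 receptors, 5 had both mutant libraries above both control libraries (Ccr1, Ccr2, Cx3cr1, Cxcr3 and Cxcr6), beside 19.6% of all tested genes. Ackr3 was lower without overlap, beside 19.5%, and 3 receptors overlapped. The median log2 fold change of the 9 was 0.41, with 6 above 0, while the median over all tested genes was −0.01. Leaving out control replicate 2 lowered the median of the 9 to 0.27, with 5 above 0. How many of the 9 had an unadjusted limma p under 0.05 depended on single libraries. It was 4 without control replicate 1, with Cxcr6 added, 3 without control replicate 2, 2 without mutant replicate 1 (Ccr1 and Cx3cr1), and 1, Ccr1, without mutant replicate 2.

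**Figure D3:**
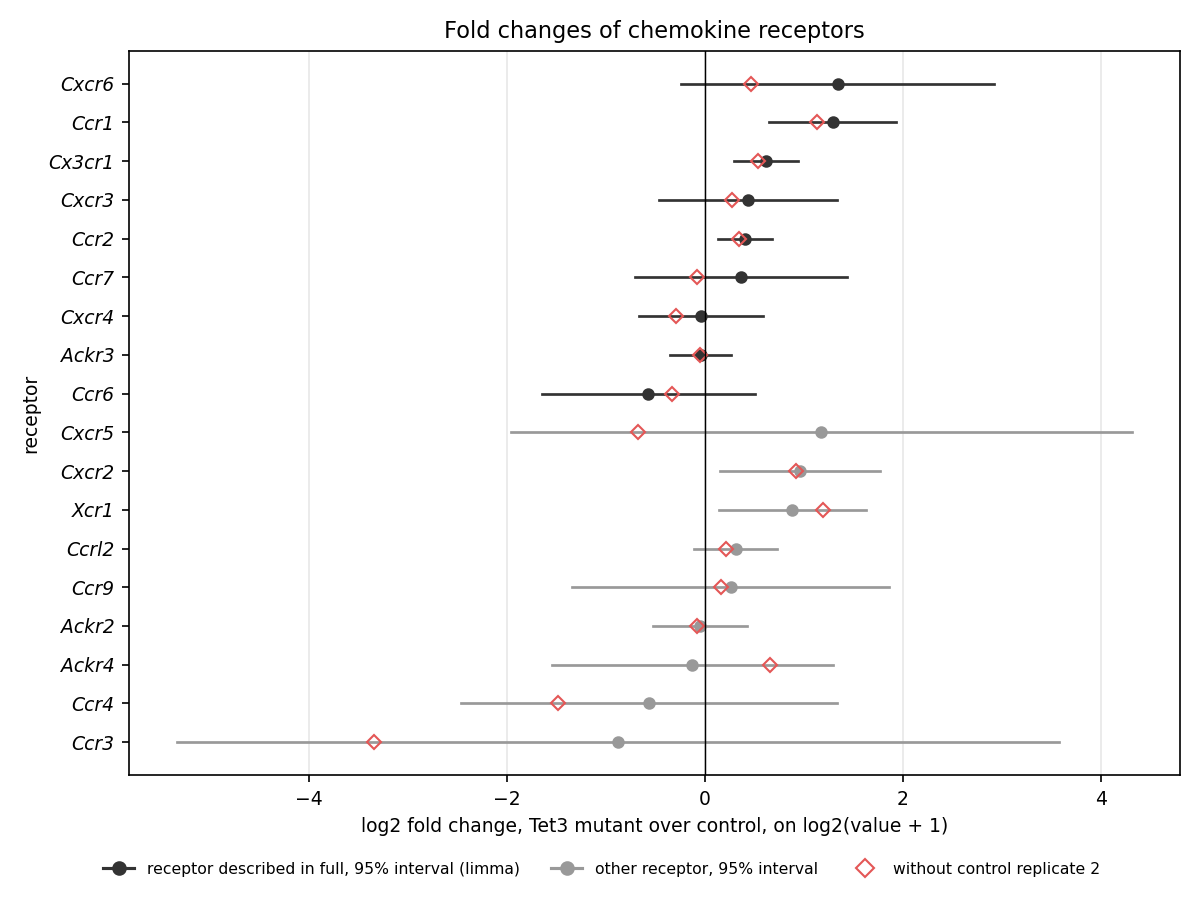
Log2 fold changes (Tet3 mutant over control, on log2(value + 1)) of the 9 receptors in black and of 9 other tested chemokine receptors in grey, with 95% intervals from limma, and open diamonds for the fit without control replicate 2. Intervals of Ccr1 (0.65 to 1.93), Cx3cr1 and Ccr2 lie above 0, and the diamond of Cxcr6 moves from 1.34 to 0.46.

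Levels of different genes can be compared only per length of their exons, and on normalized counts per kb of exon the 9 receptors fell into 2 ranges. Ccr2, Cxcr4, Cx3cr1 and Ackr3 had control means of 135, 131, 127 and 121 per kb. Their libraries spanned 108 to 153 per kb in the controls, and neighbours in this order overlapped between libraries, whereas Ccr2 did not overlap Ackr3. The other 5 had control means of 35.6 for Ccr7, 27.9 for Ccr1, 17.6 for Cxcr6, 15.1 for Ccr6 and 14.4 for Cxcr3. No control library of these 5 reached above 46.5 per kb, and neighbours in this order overlapped too. Per kb, the 4 higher receptors stood at percentiles 77.0 to 80.6 of all tested genes in the controls, and the 5 lower ones at 18.3 to 37.9.

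In the mutants the order was Cx3cr1 at a mean of 195 per kb, Ccr2 at 179, Cxcr4 at 126 and Ackr3 at 118, followed by Ccr1 at 69.0, Ccr7 at 45.0, Cxcr6 at 38.1, Cxcr3 at 19.6 and Ccr6 at 10.1. The mutant values of Cx3cr1 and Ccr2 (lowest 176 per kb) did not overlap those of Cxcr4 and Ackr3, whereas in the controls those of Cx3cr1 overlapped both. Ccr1 stood below Ccr7 in the controls and above it in the mutants, where the libraries of Ccr1 were at 59.3 and 78.7 per kb. Cxcr3 and Ccr6 remained at the low end in both groups.

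The ligands of these receptors, listed by the known pairs, were measured in the same libraries. Of 17 listed, 15 were in the table and were tested, and Ccl20 and Cxcl11 were not analysed here. The log2 fold change was above 0 for 15 of 15, beside 8156 of the 16659 tested genes, with a median of 0.60. Without control replicate 2, 14 were above 0, with a median of 0.42. Groups did not overlap for 11, all higher in the mutants (background 19.6%). None passed the adjusted test (smallest adjusted p 0.681), and 3 had an unadjusted limma p under 0.05, against 3.83% of all tested genes.

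For Ccr2, the ligand Ccl12 was at 32 and 29 in the controls and at 61 and 58 in the mutants (log2 fold change 0.94, SE 0.29, limma adjusted p = 0.681). Ccl7, which also binds Ccr1, was at 28 and 19 and at 49 and 54 (log2 fold change 1.12, SE 0.36, limma adjusted p = 0.681). Ccl2, the monocyte chemoattractant MCP-1, was at 35 and 33 and at 52 and 47 (log2 fold change 0.53, SE 0.30, limma adjusted p = 0.689). For all 3, the lower mutant was above the higher control. Without control replicate 2, neither Ccl12 nor Ccl7 was under 0.05 in the unadjusted p of limma, with log2 fold changes of 0.87 and 0.85, nor was Ccl9, so that of 3 ligands under this threshold 0 were left.

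For Ccr1, the ligand Ccl9 was at 338 and 281 in the controls and at 383 and 570 in the mutants (log2 fold change 0.60, SE 0.23, limma adjusted p = 0.681). It was 0.47 without control replicate 2 and 0.31 without mutant replicate 2. Ccl6 was at 556 and 297 and at 615 and 622, and its log2 fold change of 0.60 became 0.15 without control replicate 2. Ccl5, a chemokine of T cells and activated myeloid cells, was at 61 and 25 and at 86 and 77, and its log2 fold change of 1.04 became 0.41 without that library. The mutants did not overlap the controls for Ccl9, Ccl6 or Ccl5. Ccl3 was at 21 and 6 and at 14 and 12, which overlapped.

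Stromal, endothelial and epithelial cells are known to make the ligands Cxcl12, Cxcl16 and Cx3cl1. Cxcl12, the ligand of Cxcr4 and Ackr3, was at 1743 and 909 in the controls and at 1751 and 1854 in the mutants. Control replicate 2 alone was low, and the log2 fold change of 0.52 became 0.05 without it. Cxcl16, the ligand of Cxcr6, was at 567 and 717 and at 669 and 751, with a log2 fold change of 0.15. Cx3cl1, the ligand of Cx3cr1, was at 256 and 235 and at 278 and 246, with a log2 fold change of 0.09 (SE 0.15, limma adjusted p = 0.882). The groups overlapped for Cxcl16 and Cx3cl1.

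For Cxcr3, the ligand Cxcl9 was at 14 and 14 in the controls and at 23 and 69 in the mutants, with a log2 fold change of 1.45 carried mostly by mutant replicate 2. Cxcl10 overlapped, at 31 and 18 and at 25 and 52. For Ccr7, Ccl21a was at 106 and 94 and at 148 and 137 (log2 fold change 0.51, SE 0.20, limma adjusted p = 0.681), and Ccl19 was at 7 and 6 and at 19 and 11. Both ligands of Ccr7 were higher in the mutants without overlap, while Ccr7 itself overlapped.

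**Figure D4:**
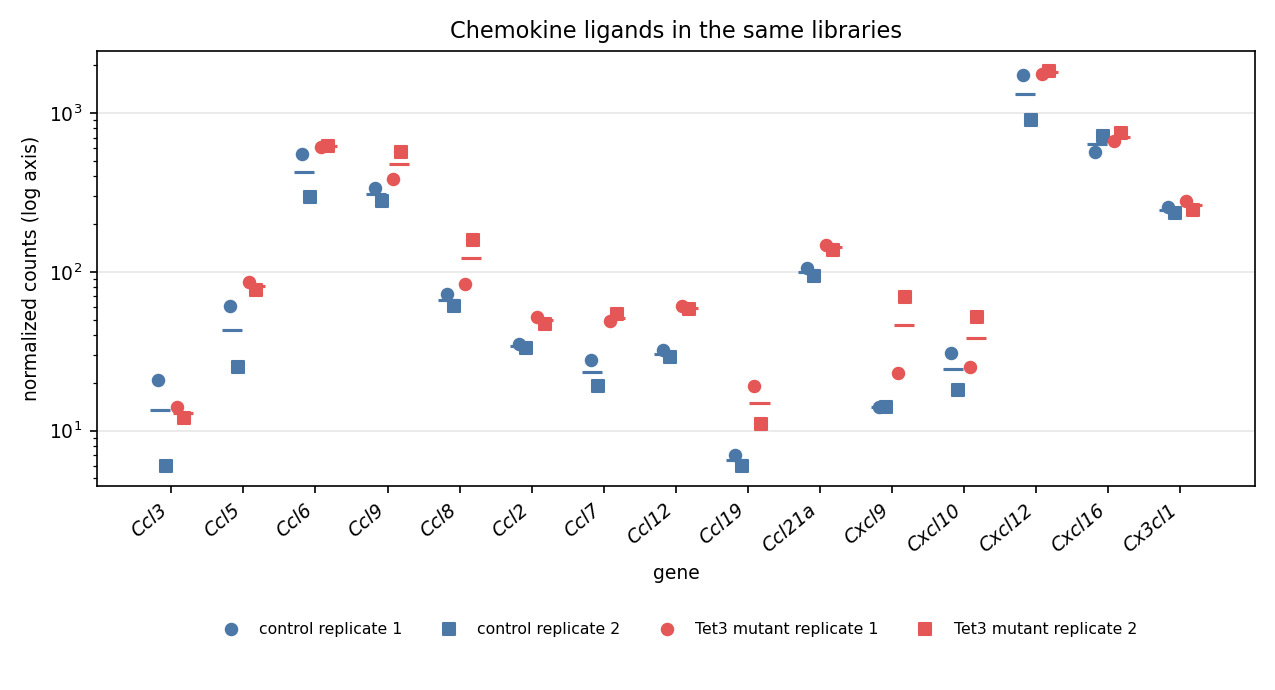
Normalized counts on a log axis for the 15 measured ligands of the receptors, with 1 point per library and horizontal bars for the group means. Ccl2, Ccl7 and Ccl12 lie higher in both mutants, and control replicate 2 is the low point of Cxcl12 (909) and Ccl6 (297).

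Downstream of the receptors, 28 genes of G protein signalling, chemotactic kinases and exchange factors, and receptor desensitization were tested. None passed the adjusted test. The median log2 fold change was 0.12, with 23 above 0 and 13 higher without overlap (background 19.6%), and 4 had an unadjusted limma p under 0.05, all higher (3.83% of all tested genes). These were Vav1, an exchange factor of leukocytes for Rac, Pik3cg and Pik3r5, the catalytic and regulatory subunits of the PI3-kinase that G proteins activate in leukocytes, and Gng2, a G protein γ subunit. Vav1 was at 416 and 352 in the controls and at 538 and 532 in the mutants (log2 fold change 0.48, SE 0.14, limma adjusted p = 0.681). Pik3cg was at 424 and 374 and at 515 and 539 (log2 fold change 0.40, SE 0.13, limma adjusted p = 0.681). In both genes the groups did not overlap. Without control replicate 2, Vav1 and Pik3cg were still under 0.05 before adjustment, whereas Pik3r5 went from 0.51 to 0.29 and Gng2 from 0.55 to 0.28 in log2 fold change and neither was. The inhibitory G protein subunit Gnai2, which most cells use, was at 1400 and 1417 and at 1502 and 1428, with a log2 fold change of 0.06.

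Of 13 other chemokine receptors listed for comparison, 9 had a mean of at least 10 and were tested. Ackr1, Ccr8, Ccr10 and Cxcr1 did not pass this filter, with values from 0 to 11. Of these 9, 3 were higher without overlap (19.6% of all tested genes), 5 were above 0 in log2 fold change and the median was 0.26, or 0.16 without control replicate 2. The 2 with an unadjusted limma p under 0.05 were Cxcr2 and Xcr1, both higher, beside 3.83% of all tested genes. Cxcr2, the receptor by which neutrophils are recruited, was at 99 and 93 in the controls and at 250 and 141 in the mutants (log2 fold change 0.96, SE 0.32, limma adjusted p = 0.681). Xcr1, a marker of cross-presenting dendritic cells, was at 84 and 130 and at 170 and 221 (log2 fold change 0.88, SE 0.29, limma adjusted p = 0.681). Both had groups that did not overlap. Without control replicate 2 the log2 fold changes were 0.92 for Cxcr2 and 1.20 for Xcr1, of which that of Xcr1 alone had an unadjusted limma p under 0.05. Cxcr2 was at 0.55 without mutant replicate 1, and Xcr1 at 0.57 without control replicate 1.

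Cell type markers that go with these other receptors were measured alongside. Markers of neutrophils, of which 9 were in the table, summed to 1070 and 760 in the controls and to 1825 and 1342 in the mutants, with 9 of 9 above 0, or 7 of 9 without control replicate 2, and 7 higher without overlap (19.6% of all tested genes). Of the 9, 1 was at or under 3 normalized counts in control replicate 1 and 2 were in control replicate 2. Markers of dendritic cells, whose list includes Xcr1, summed to 2845 and 3100 and to 3761 and 4412, with 10 of 10 above 0 and 7 higher without overlap (again beside 19.6%). Markers of endothelial cells summed to 15137 and 14788 and to 16127 and 15631, and their median log2 fold change was 0.09, or −0.003 with 5 of 10 above 0 without control replicate 2. Their part in the values of the receptors was not tested.

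Of the 22 chemokine receptors considered, 13 lie on chromosome 9, and 6 of these lie within chr9:123678439-124113557 on GRCm38, a stretch of 435 kb whose bounds were chosen after the positions had been seen. In order along the chromosome they are Ccr9, Cxcr6, Xcr1, Ccr1, Ccr3 and Ccr2. Of the 6, 4 were higher in both mutants without overlap (Cxcr6, Xcr1, Ccr1 and Ccr2), beside 19.6% of all tested genes. The 2 other tested genes of the stretch overlapped between groups. Lztfl1, which takes part in ciliary transport, was at 232 and 252 in the controls and at 303 and 231 in the mutants. Fyco1, an adaptor of autophagic vesicles within whose span Cxcr6 lies on the opposite strand, was at 1398 and 1802 and at 1503 and 1343. Cxcr6 and Fyco1 share 0 exon bases. Cx3cr1 lies outside this stretch on the same chromosome.

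**Figure D5:**
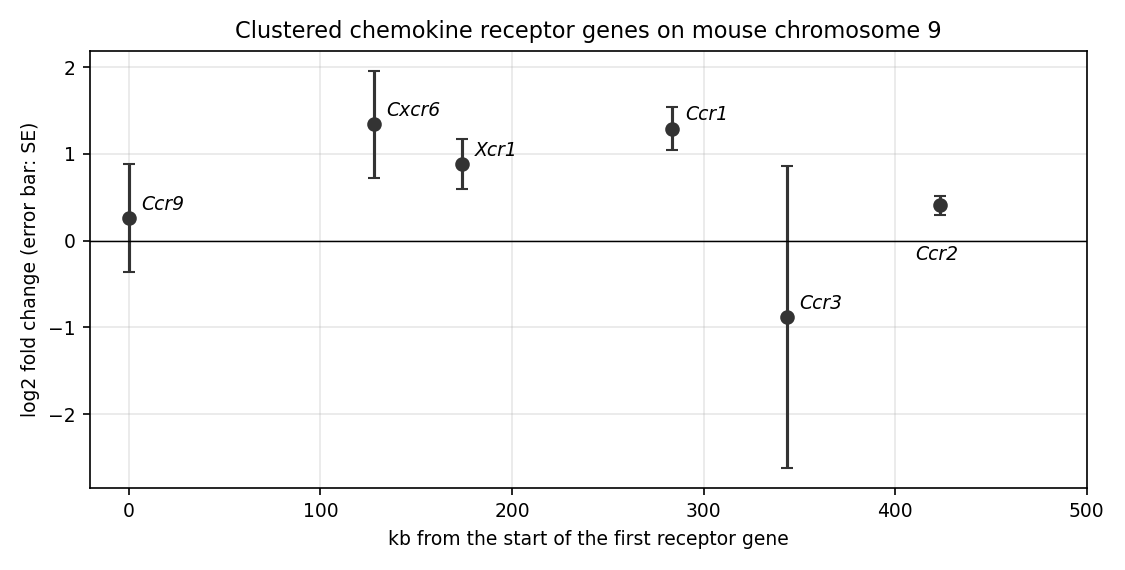
Log2 fold change (Tet3 mutant over control) with its standard error for the 6 clustered receptors of chromosome 9, plotted by distance in kb from the start of Ccr9. Ccr1 (1.29) and Cxcr6 (1.34) are the highest, Ccr2 (0.41) has the shortest error bar, and Ccr3 (−0.88, SE 1.74) has the longest.

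For each receptor, the gene of most similar pattern was sought among 148 genes of the lists used here, as the smallest root mean square difference of centred log2 values over the 4 libraries. Ccr2 was nearest to Pik3cg (0.044 log2 units, against a median of 0.25 over the pool), Cx3cr1 to Lum, a collagen-binding proteoglycan of fibroblasts (0.045, median 0.31), and Ackr3 to Rac1, a small GTPase of cell movement (0.046, median 0.37). Cxcr3 was nearest to Mrc1, a receptor of macrophages (0.053), Ccr7 to Ptprc (0.10), Cxcr4 to Mertk, a macrophage receptor for dying cells (0.11), and Ccr1 to its ligand Ccl7 (0.15). Cxcr6 was nearest to Cd3d, a subunit of the T cell receptor complex, which was at 22 and 5 in the controls and at 33 and 27 in the mutants (0.12, median 0.76). Ccr6 had no close match, and the nearest gene, Lyz2, was at a distance of 0.27. With 4 libraries, these distances describe shape only.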

How the data were processed

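Total RNA of sorted lung SMCs was depleted of ribosomal RNA and sequenced as stranded libraries from 50 ng of input. By the study's methods and the submitters' processing notes, the authors trimmed reads with Trimmomatic 0.36, aligned them to mm10 (GRCm38) with STAR 2.6.0c, counted reads over exons with featureCounts from Subread 1.6.0, excluding reads of several genes or places, and scaled counts with DESeq2. Whether strand was used in counting is not stated. The authors rounded the resulting normalized counts to whole numbers before they deposited them, a unit treated here as a score, so that raw counts were not at hand, no count test was run and the reads assigned in each library are known here only through the scaled totals, beside an average over libraries in the methods.

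Samples were grouped by the labels' titles. Values were tested as log2(value + 1) for the 16659 genes with a mean of at least 10, with limma 3.58.1 in R 4.3.3 (lmFit, eBayes with a mean-variance trend, two-sided, Benjamini-Hochberg over all tested genes, threshold 0.05). Adding 1 shrinks the fold changes of low genes. As differences of mean log2 values, they can also differ from the ratio of group means in either direction. For Ccl3 the log2 fold change was 0.17, whereas the ratio of means was 0.963. An exact permutation test of 2 against 2 libraries cannot go below 0.333 and was not used. The 95% intervals are from the moderated fit. With a library left out, the lone library of a group was assumed to vary like the other group. The fit was tested on simulated data. Exon lengths came from GENCODE M21, in which 99.9% of the tested genes were found, and promoters from RefSeq.

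The members and gene lists were chosen with earlier results of these data known, and the study chose some chemokine genes on these same libraries, so their directions are not independent evidence. All members are named. Of other receptors and signalling genes, those with an unadjusted p under 0.05 and no overlap were eligible to be named, and of ligands also those that bind a member. Other genes were named after their values were seen. Alternatives were the pseudocount (0.5 and 8), the filter (a mean of 1 and 50), TMM factors, the trimmed means of log ratios, computed on the table, equal totals, no trend, a replicate block and each library left out. Libraries of the same replicate number deviated together weakly (Pearson's r across 16659 genes 0.13, 2 pairs), which does not establish pairing. A further gene is not reported here.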

Additional observations from a re-analysis of the deposited data

How the results depend on the processing

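No receptor passed the adjusted limma test under any of the 12 alternatives, with adjusted p from 0.205 to 0.998. Over all genes, 1 was called without the mean-variance trend (smallest adjusted p 0.0307), and 0 in all other fits, beside 1112 at an unadjusted p under 0.05. That unadjusted count ran from 273 to 3366 when a library was left out. Ccr1, Ccr2, Cx3cr1, Cxcr3 and Cxcr6 stayed higher and Ccr6 lower in every fit that held them. The filter at a mean of 50 removed Ccr6 and Cxcr3. Under equal totals Cxcr4 was 0.012 and Ackr3 was 0.0066, and the share of unadjusted calls that were higher rose from 57.4% to 69.2%, with a median over all genes of 0.04. Leaving out 1 library gave −0.084 to 0.81 for Ccr7, −0.29 to 0.22 for Cxcr4, 0.27 to 0.60 for the median of the 9 receptors, and 1 to 4 receptors at an unadjusted p under 0.05, which were 3 in the other 8 fits. With the replicate block, 1637 genes had an unadjusted p under 0.05, 42.8% of them higher, none was called and Ccr1 was at 1.29 (limma adjusted p = 0.356). The block changed no call. The intervals of Ccr6, Ccr7, Cxcr3 and Cxcr6 were wider than the differences. The causes were not tested.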

Other observations

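A few values in the wider receptor and signalling lists were set by 1 library, and they were picked after the values had been seen. Ccr3, a receptor of eosinophils, was at 60 in control replicate 1 and at 1, 2 and 11 in control replicate 2 and the mutants. Cxcr5, which guides B cells to follicles, was at 51 and 3 in the controls and at 37 and 27 in the mutants, so control replicate 2 was low, as it was for the summed B cell markers (294). Ackr4, a scavenger of Ccl19 and Ccl21, was instead high in that library, at 112, beside 37, 58 and 60 in the other libraries. Grk3, a kinase that desensitizes Cxcr4 and other receptors, was at 1603 in control replicate 2 and at 678, 682 and 626 in control replicate 1 and the mutants. Its log2 fold change of −0.67 (SE 0.40, limma adjusted p = 0.699) became −0.05 without control replicate 2. Grk2, its close relative, was at 890 and 1000 in the controls and at 1066 and 1017 in the mutants. None of these genes passed the adjusted test.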
